A study of Mus musculus with 8 samples.

Results

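The mouse major histocompatibility complex, called H2, was read here as the stretch chr17:34050001-35450000 of genome build mm9. Its members were the 1000 bp windows in that stretch with at least 3 CpG positions, each covered by at least 10 reads in every library. This left 240 windows of 93730 in the genome, holding 2889 of the 2994 measured CpG positions of the region. The other 105 positions lay in windows with fewer than 3. The 240 windows were 17.14% of the 1400 windows that span the region. By position they fell into a K block of 46 windows, a class II block of 34, a class III block of 148 and a D block of 12.

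The measurements came from reduced representation bisulfite sequencing, in which DNA is cut at CCGG by the enzyme MspI and the methylated share of reads is read at CpG positions near the cuts. The DNA was from kidney cortex and outer medulla of male wild-type C57BL/6J mice, so it averages over all cell types of that tissue. One surgical series held 2 libraries of kidneys 7 days after unilateral ureteral obstruction (UUO), 2 of obstructed kidneys with 5AZA given intraperitoneally at 1 mg/kg/day, and 1 of a sham operation. The other held 1 library each of bilateral ischemia for 25 minutes with 1 week of reperfusion, the same with 1 month of reperfusion, and its own sham. The sources used here do not say whether paired libraries came from separate mice, so p-values measure the spread between 2 pairs of libraries, which may be technical. Methylated and total reads were summed over the CpG positions of a window, and a level is their ratio in percent. A read that covers several positions is thus counted at each of them. Library totals ran from 57853745 to 86411736 reads over CpG positions, and H2 windows held a median of 402 reads per library (30 to 5724).

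The complex holds the genes of the class I and class II proteins that display peptides to T cells. The K and D blocks carry the classical class I genes, which nearly all nucleated cells express. The class II block carries the class II chains and the machinery that cuts, transports and loads peptides. The class III block between them is gene-dense and holds complement, tumour necrosis factor family and heat shock genes among many with no role in antigen display. Promoters rich in CpG are in general unmethylated in most tissues.

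Start sites were placed by matching the spacing of CG pairs in RefSeq promoter sequences (GRCm38.p6, 250 bases before and 50 after the start) to the measured positions. This tied 54 promoter sequences of 41 genes to the region. The sequences below are the promoter parts on which the next values rest. Those of the class I genes H2-K1 and H2-D1 were almost unmethylated away from CCGG. Slc44a4 and Vwa7 were the 2 that averaged 10% or more among the promoters with at least 3 positions outside CCGG. Each is written 5′ to 3′ along its transcript and ends at the base before the start. Capitals mark the CpG positions that were measured, with CCGG written whole where it is an MspI site. The mm9 spans are chr17:34137279-34137358 on the minus strand for H2-K1, and on the plus strand chr17:35399919-35400038 for H2-D1, chr17:35051351-35051410 for Slc44a4 and chr17:35153464-35153523 for Vwa7.
H2-K1: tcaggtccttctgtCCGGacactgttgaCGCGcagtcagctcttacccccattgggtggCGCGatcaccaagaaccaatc
H2-D1: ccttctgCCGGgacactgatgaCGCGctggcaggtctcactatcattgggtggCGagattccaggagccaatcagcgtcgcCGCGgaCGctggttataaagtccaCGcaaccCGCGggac
Slc44a4: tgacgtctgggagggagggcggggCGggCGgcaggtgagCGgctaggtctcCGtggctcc
Vwa7: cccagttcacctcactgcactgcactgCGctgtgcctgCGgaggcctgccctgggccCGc

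Every promoter position within CCGG read as methylated, and nearly every other promoter position read as unmethylated. The 91 measured CG pairs within CCGG had a median level between 70.13% and 75.3% in each of the 8 libraries, and each of the 91 averaged at least 50%. The 386 other CG pairs had medians between 0 and 1.52%, and 371 of them (96.1%) averaged below 10%. The same split stood in the other matched promoters of chromosome 17, where 905 CCGG positions had medians between 70.21% and 75% and 97% of 4384 other positions averaged below 10%. The labels' protocol repairs the cut ends of fragments with methylated dCTP. All 91 CCGG positions counted as fragment edges, by a rule on changes in read depth and on the distance to neighbouring CpG positions. The part of end repair in the CCGG levels was not tested. A CCGG stands in the 250 bases before the start in 47.1% of the 32851 RefSeq mouse promoter sequences and in 51 of the 54 matched here. Matching needs at least 5 measured positions, and these lie near CCGG cuts. The part of this rule in the higher share was not tested. Because CCGG positions read so unlike the others, levels below are given with all positions and with fragment-edge positions left out. Edges made up 58.2% of the region's positions, and 106 of the 240 windows kept 3 positions without them.

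**Figure D1:**
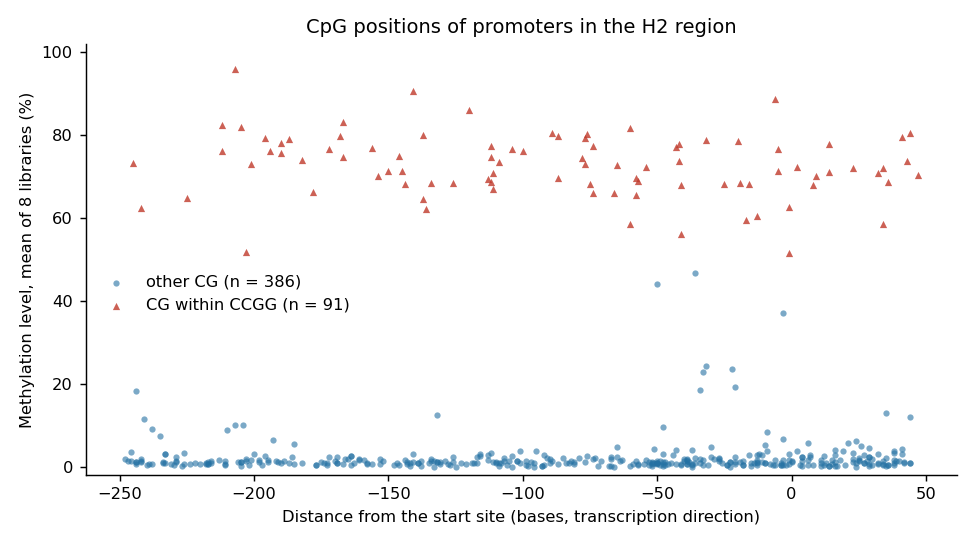
Methylation level (percent, mean of 8 libraries) of each measured CpG in the matched promoters of the H2 region against its distance from the start site in bases. The 91 positions within CCGG (triangles) all lie above 50%, and 371 of the 386 other positions (dots) lie below 10%.

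Both classical class I promoters were nearly unmethylated in every library away from CCGG. Read counts of promoters here and below are sums over their positions, so a read that covers several is counted at each. H2-K1 had 4 such positions, with 204 to 624 reads per library in sum and as few as 51 at a position. Its level was 1.92% in the obstruction sham, 1.47% and 3.35% in UUO, 1.1% and 1.64% with 5AZA, 0 in the ischemia sham, 0.56% at 1 week and 0.27% at 1 month. H2-D1, with 13 positions and 781 to 1526 reads, stood at 1.29% in the obstruction sham, 1.36% and 0.91% in UUO, 1.96% and 1.79% with 5AZA, 0.12% in the ischemia sham, 0.66% at 1 week and 0.14% at 1 month. In both genes the values of the groups within a surgical series lay within 3.4 percentage points of 0. Class I genes resemble each other in sequence, as the printed stretches show, and the sources used here do not say how reads that fit more than 1 copy were treated, so the split between H2-K1, H2-D1 and their relatives is uncertain. Their CCGG positions stood at 67.38% to 77.78% for H2-K1, far above their neighbours in the same sequence.

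Class II and antigen-processing promoters were thinly covered. Of 9 class II genes listed, only H2-DMa, which helps to load peptides onto class II molecules, was tied to measured positions, and none had 3 positions of 10 reads outside CCGG. Without the minimum of 10 reads, an alternative chosen after seeing the data, its 16 other CG pairs gave 6 methylated of 659 reads (0.91%) in the obstruction sham. In UUO they gave 11 of 148 (7.43%, exact binomial 95% interval 3.77 to 12.91) and 7 of 348 (2.01%, 0.81 to 4.1). With 5AZA they gave 0 of 162 and 19 of 455 (4.18%), so the pairs of libraries disagreed as much as the groups. Intervals here cover counting error only, since the reads carry no stated molecular identifiers. A read that covers several of the 16 pairs was counted at each, so the intervals are narrower than separate reads would give. Tap1, a subunit of the transporter that carries peptides into the endoplasmic reticulum, and Psmb9, an immunoproteasome subunit, share a start region. Outside CCGG this region held at most 10 reads, summed over positions, in 2 libraries and none in the other 6. At this depth no difference at either promoter was detectable. Of the 4 complement genes listed, none was tied to measured positions.

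Most other promoters of the region read close to 0 away from CCGG. Of 44 genes listed, 16 were tied and 12 had at least 3 positions outside CCGG. Over all genes of the region, 32 had at least 3 such positions, and 30 of them (93.8%) averaged below 5%, the highest at 3.3%. On the rest of chromosome 17 it was 330 of 347 (95.1%). Low promoters included Ring1, a Polycomb ubiquitin ligase, at 0.16% to 2.5% over the libraries. They also included Ehmt2, the histone methyltransferase G9a, at 0.64% to 3.35% over 2 promoter sequences, and Ddx39b, an RNA helicase of messenger RNA export, at 0.19% to 2.12%. Hspa1l, a relative of the inducible heat shock protein genes, stood at 0 to 1.75% over only 3 positions. Ltb, the lymphotoxin beta gene, had a single position outside CCGG, which read between 28.57% and 55.17% on 29 to 56 reads.

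Among promoters with at least 3 positions, Slc44a4 and Vwa7 were the exceptions. Slc44a4, which encodes a solute carrier of the choline transporter-like family, had 5 positions outside CCGG, with 254 to 606 reads per library. Its promoter level was 21.08% in the obstruction sham, 27.33% and 27.45% in UUO, and 16.67% and 22.25% with 5AZA. In the ischemia series it was 13.78% in the sham, 19.64% at 1 week and 21.48% at 1 month. Both UUO libraries and both ischemia libraries therefore stood above their own sham, and the 5AZA pair lay on either side of the obstruction sham. The position 36 bases before the start, the first in capitals in the printed sequence, had the widest differences. It read 41.58% in the obstruction sham against 70.37% and 66.25% in UUO and 43.08% and 52.17% with 5AZA, and 23.68% in the ischemia sham against 35.14% and 41.67%. That position was picked out after its values were seen, lies at a fragment edge and had as few as 38 reads in a library.

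The Vwa7 promoter, of a gene named for a von Willebrand factor A domain, had 4 positions outside CCGG and 142 to 498 reads. It stood at 19.26% in the obstruction sham, 27.19% and 30.86% in UUO, and 19.82% and 15.43% with 5AZA. The ischemia series gave 27.46% in the sham, 19.68% at 1 week and 30.8% at 1 month. UUO was above its sham and above 5AZA in every library, and the ischemia sham stood higher than the obstruction sham. The whole window of this promoter, CCGG included, did not pass the test in either comparison, with an adjusted p of 0.548 for UUO against sham and 0.0789 for 5AZA against UUO (quasi-binomial model with dispersion moderated by limma, Benjamini-Hochberg).

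Averaged over its windows, the region was less methylated than the rest of chromosome 17. With all positions its mean was 60.24% in the obstruction sham and 59.1% in the ischemia sham, against 68.23% and 67.21% over 4167 other windows. Without edge positions the 2 shams stood at 21.87% and 20.57%, against 32.1% and 31.15% over 1491. The region's windows also held more CpG positions, a median of 7 against 5. Of the 106 windows without edges, 68 (64.2%) averaged below 10% and 4 (3.8%) averaged 90% or more, compared with 57.3% and 12.2% elsewhere on the chromosome. These shares describe the windows and were not tested.

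**Figure D2:**
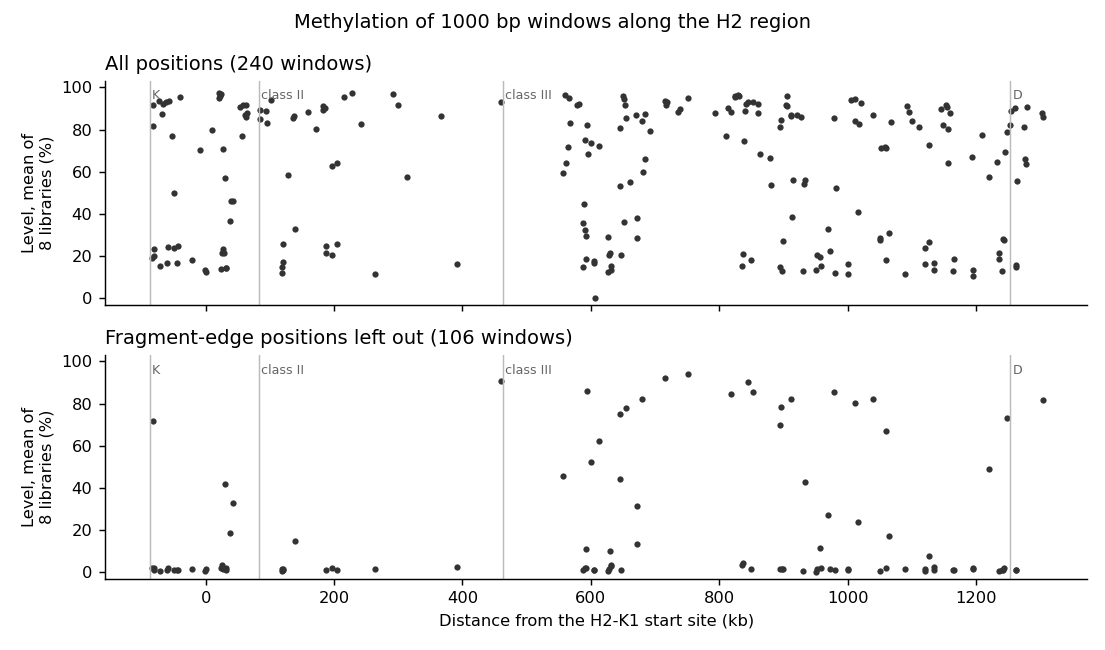
Level of each window (percent, mean of 8 libraries) against its distance in kb from the H2-K1 start site, with all positions (top, 240 windows) and without fragment-edge positions (bottom, 106 windows); grey lines mark where the 4 blocks begin. Without edges, the low windows move from about 10% to 30% down to near 0.

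Block means differed. Without edge positions the K block averaged 8.94% in the obstruction sham and 8.06% in the ischemia sham over 21 windows. The class II block averaged 10.17% and 10.01% over 11, the class III block 27.24% and 25.67% over 71, and the D block 28.11% and 26.19% over 3. With all positions the order of the blocks was different, with 64.59% and 64.1% in the class II block, 69.39% and 68.93% in the D block, 59.37% and 58.28% in the class III block and 57.42% and 55.48% in the K block. Without edges, in the class III block, the UUO pair read 28.54% and 28.28% and the 5AZA pair 26.05% and 25.55%, so the pairs did not overlap. In the K block UUO read 10.75% and 10.96% and 5AZA 8.5% and 8.99%, which again did not overlap. The same held in the class II block (12.13% and 12.13% against 10.63% and 10.67%) and the D block (29.99% and 27.96% against 27.26% and 27.14%). It also held over the 1491 other windows of chromosome 17 (33.13% and 33.17% against 30.76% and 29.94%).

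Obstruction was compared with its sham to ask whether methylation of the region differs in the obstructed kidney. The region's mean was 60.5% and 60.76% in UUO (60.63% ± 0.178, SD, n = 2) against 60.24% in the 1 sham, a difference of 0.4 points. Windows of like level and CpG count on chromosome 17 differed by 0.92 points. Without edges UUO read 23.35% and 23.17% against 21.87%, a difference of 1.39 points, and the like windows differed by 1.16. With reads pooled over all positions in place of the mean over windows the sign turned, to -1.17 points. The mean was not tested against the 1 sham, and the ischemia sham read 59.1% and 20.57%, so the shams lay further apart than UUO and its sham did with all positions.

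No window of the region was called for UUO against sham. A window was called when its adjusted p in the quasi-binomial model was below 0.05 and the group means differed by 10 points or more. This called 0 of 240, where the background over the genome was 0.0181%, and 0 of 106 without edge positions, where it was 0.36%. At an unadjusted p below 0.05 it passed 27 windows, 17 higher and 10 lower, which is 11.2% against a background of 8.14%. edgeR called 0 with 24 at an unadjusted p below 0.05 (10% against 7.4% of all windows). limma on log2 ratios called 0 with 14 (5.8% against 7.9%), so the share was above the background in the quasi-binomial model and edgeR and below it in limma. Both UUO libraries stood above the sham in 101 windows (42.1%) and below it in 67 (27.9%), against 42.5% and 28% of all windows. Without edges they stood above in 57 of 106 (53.8%) and below in 23 (21.7%), against 44.8% and 24.2%. At an unadjusted p below 0.05 the quasi-binomial model then passed 15 of 106, 12 higher and 3 lower (14.2% against 8.2%). In that model the lowest adjusted p in the region was 0.235 with all positions and 0.128 without edges.

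Windows of at least 5 positions whose libraries agree in sign were ranked by their difference. The 5 of these windows that stood highest in UUO relative to sham lay near Ddx39b, Hspa1l, Neu1, 1110038B12Rik and, in the class II block, beyond H2-DMa. In each of them both 5AZA libraries read below both UUO libraries, a comparison that uses the same UUO libraries again. The first, chr17:35386001-35387000, lies 7.8 kb from the start of Ddx39b. It read 71.43% in the sham, 84.93% and 92.63% in UUO, and 76.78% and 70.31% with 5AZA, a difference of 17.35 points with a standard error of 5.9 (adjusted p = 0.453, quasi-binomial with limma). The second, chr17:35107001-35108000, lies 2.1 kb from Hspa1l and read 27.4% in the sham, 40.92% and 35.38% in UUO, and 27.35% and 26.01% with 5AZA. In both windows UUO lay above the sham and above 5AZA without overlap, yet neither passed the test over the genome.

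Next in size were a window 3.3 kb from Neu1, the gene of a lysosomal sialidase, and one 5.1 kb from the transcript 1110038B12Rik. At chr17:35071001-35072000, near Neu1, the sham read 54.76%, UUO 66.85% and 60.98%, and 5AZA 53.71% and 56.23%. Without edge positions this difference of 9.16 points was 2.64 (adjusted p = 0.937, quasi-binomial with limma), and UUO 2, at 46.96%, lay below the sham at 49.66%. At chr17:35094001-35095000 the sham read 14.44%, UUO 25.99% and 21.08%, and 5AZA 15.62% and 15.85%. The fifth, chr17:34276001-34277000 in the class II block, was the one with the lowest adjusted p for UUO. There the sham read 29.15%, UUO 37.97% and 37.65%, and 5AZA 32.94% and 31.7%, and the difference of 8.66 points (standard error 1.8) had an adjusted p of 0.235 by the quasi-binomial model with limma. Its nearest matched start, H2-DMa, lies 16.7 kb away.

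**Figure D3:**
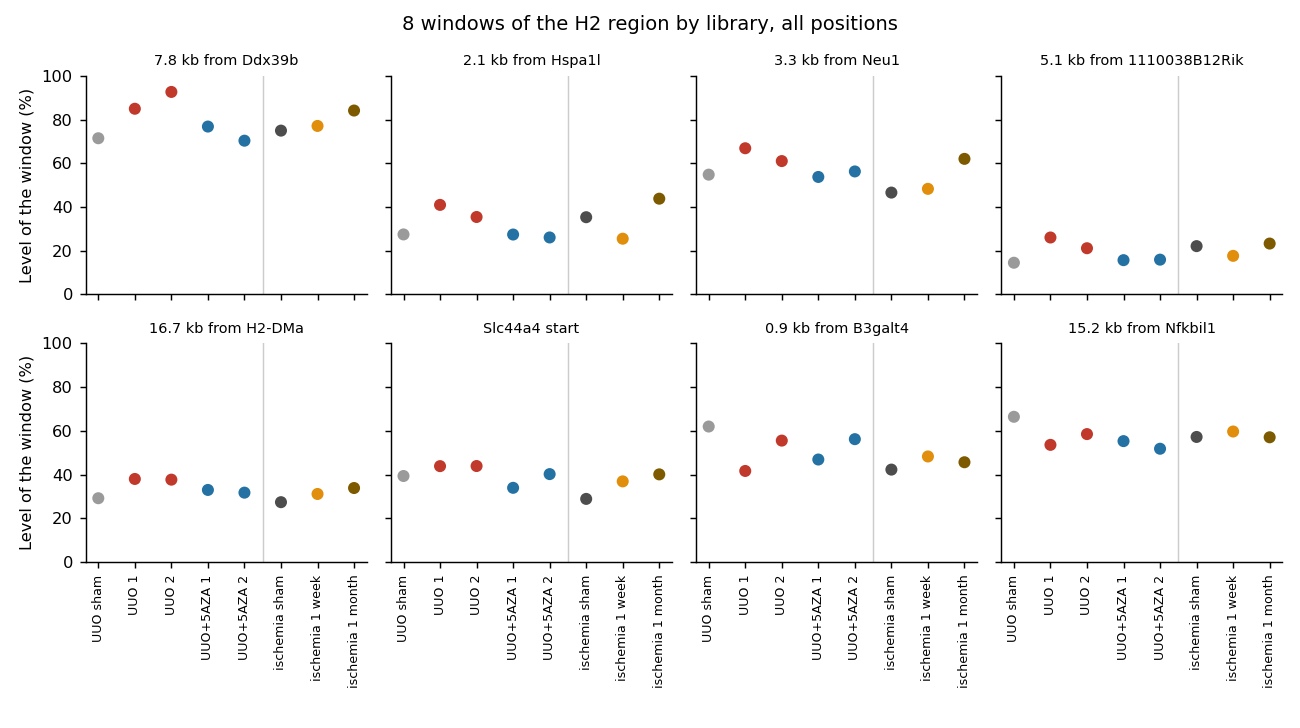
Level (percent, all positions) of 8 windows in each library, titled by the nearest matched start site; the grey line parts the obstruction series from the ischemia series. In the first 5 windows both UUO libraries lie above the UUO sham and above both 5AZA libraries, and in the last 2 they lie below the UUO sham.

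Over all 240 windows the lowest difference was -16.85 points. Among windows of at least 5 positions whose libraries agree in sign, lower levels in UUO were led by chr17:34087001-34088000. This window lies 0.9 kb from B3galt4, a galactosyltransferase gene of ganglioside synthesis. The window read 61.97% in the sham against 41.63% and 55.53% in UUO, a difference of -13.39 points (standard error 5.29, adjusted p = 0.479 by the quasi-binomial model with limma). The SD of the 2 UUO libraries was 9.83 points, and that of the 5AZA pair, at 46.87% and 56.19%, was 6.59. At chr17:35357001-35358000, 15.2 kb from Nfkbil1, the sham read 66.43% and UUO 53.58% and 58.51%. Both windows were called when only the UUO and sham libraries entered the model, with adjusted p of 0.00441 and 0.00533 by the quasi-binomial model with limma. Against both shams the differences were only -3.53 and -5.77 points, with adjusted p of 0.871 and 0.345 in the same model with limma. Without UUO 1 they were -6.44 and -7.92 points (adjusted p = 0.982 and 0.472, quasi-binomial with limma), and without UUO 2 -20.33 and -12.85 (adjusted p = 0.0118 and 0.0202). The other 3 of the 5 named differences below the sham were -9.62 points at chr17:34817001-34818000, -7.33 points at chr17:34333001-34334000, 9 kb from Tap1, and -7.13 points in the window of the D17H6S53E start. None of these 5 passed the test over the genome.

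5AZA was compared with UUO to ask whether the treatment goes with other methylation levels in the obstructed kidney. The region's mean was 58.79% and 58.2% with 5AZA (58.5% ± 0.418, SD, n = 2) against 60.5% and 60.76% in UUO, which is 2.13 points lower. Like windows were 2.89 points lower. The pairs did not overlap, and the two-sided exact permutation p of 0.33 is the smallest that 2 against 2 libraries can give. Without edge positions 5AZA read 21.01% and 20.77%, which is 2.37 points below UUO, and like windows were 2.46 points lower. With reads pooled over positions the difference was -0.06 points.

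**Figure D4:**
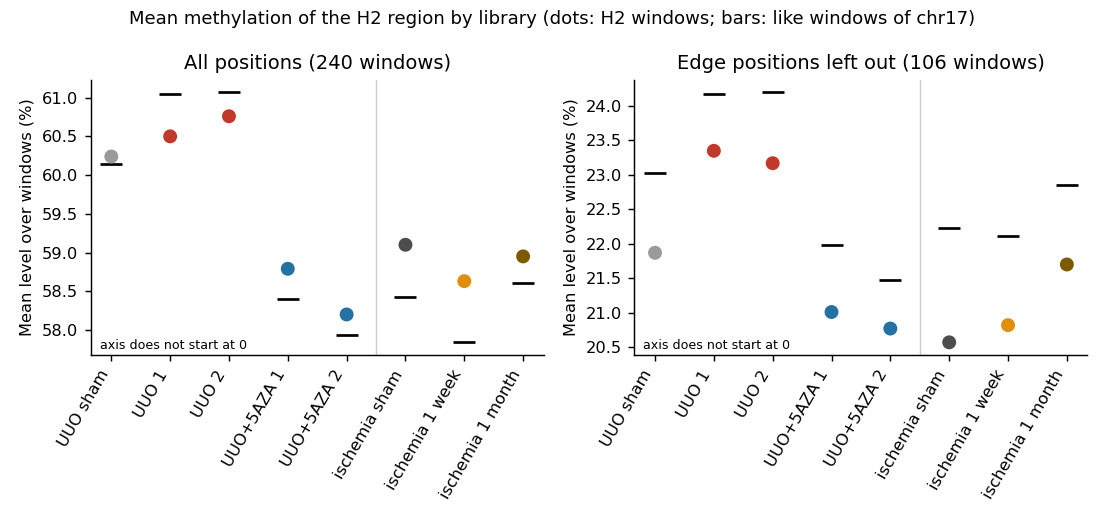
Mean level over the windows of the H2 region in each library (dots, percent) and the mean of like windows of chromosome 17 (bars, same level and CpG classes, weighted by the number of H2 windows), with all positions (left) and without fragment edges (right). Like windows left of the grey line are classed by the ischemia libraries and right of it by the obstruction libraries; both 5AZA libraries lie below both UUO libraries, and the axes do not start at 0.

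No window was called for 5AZA against UUO either. The quasi-binomial model called 0 of 240 against a background of 0.389%, and 0 of 106 without edges against 1.49%, and the lowest adjusted p was 0.0525. At an unadjusted p below 0.05 it passed 53 windows, 7 higher and 46 lower, which is 22.1% against a background of 24.3%. edgeR called 0 with 48 at an unadjusted p below 0.05 (20% against 24% of all windows), and limma on log2 ratios called 0 with 38 (15.8% against 22.4%). The 2 5AZA libraries were lower than either UUO library in 108 windows (45%), against 49.2% of all windows. They lay above both in 27 windows (11.2%), against 5.61% of all windows. Without edges the shares were 41.5% below and 8.5% above, against 39.8% and 8.45%. At an unadjusted p below 0.05 the quasi-binomial model then passed 21 of 106, 5 higher and 16 lower (19.8% against 18.5%).

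The share above UUO was thus close to the background once edges were left out. Over all 240 windows the highest difference was 12.13 points, but only windows of at least 5 positions whose libraries agree in sign were ranked. One of the 5 that then stood highest with 5AZA relative to UUO was chr17:34258001-34259000, 1.1 kb from the bromodomain gene Brd2. This window read 22.2% and 24.66% in UUO and 29.62% and 28.5% with 5AZA. Without edge positions the same window read 2.59% and 2.71% against 2.99% and 1.29%, so its direction turned. The window of the start of Atf6b, a transcription factor of the endoplasmic reticulum stress response, differed by 2.91 points with all positions and by 0.42 points without edges, and passed neither test. The largest difference among the 5, 11.23 points at chr17:35069001-35070000 near Neu1, went from 47.11% and 55.43% to 63.24% and 61.76% on as few as 68 reads, and did not pass the test over the genome (adjusted p = 0.205, quasi-binomial with limma).

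Under the same limits on positions and sign, the largest differences below UUO were in windows already described. The window near Ddx39b stood 15.24 points lower with 5AZA (standard error 3.86, adjusted p = 0.0868) and the window near Hspa1l 11.47 points lower (standard error 2.88, adjusted p = 0.0706), both by the quasi-binomial model with limma. Because both comparisons use the same UUO libraries, a window that reads high in UUO stands out in both. Then came chr17:34694001-34695000, at 70.87% and 64.07% in UUO and 62.84% and 50% with 5AZA. At chr17:34167001-34168000, 1.1 kb from the zinc transporter gene Slc39a7, UUO read 61.04% and 63.55% and 5AZA 49.44% and 53.59%. At chr17:34807001-34808000 UUO read 93.75% and 91.82% and 5AZA 81.51% and 84.33%. The lowest adjusted p, 0.0525 by the quasi-binomial model with limma, belonged to chr17:34749001-34750000, 6.7 kb from the acyltransferase gene Agpat1, which is named here because of that p. It read 77.88% and 77.5% in UUO, 69.22% and 67.61% with 5AZA and 70.1% in the sham.

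The ischemia libraries were compared with their sham to follow the region after injury and reperfusion. The region's mean was 59.1% in the sham, 58.63% at 1 week and 58.95% at 1 month. The differences were -0.47 and -0.15 points, beside -0.58 and 0.17 points in like windows. Without edges the 3 libraries read 20.57%, 20.82% and 21.7%, differences of 0.25 and 1.13 points beside -0.1 and 0.63 in like windows. Each group is 1 library, so these differences have no replicate check.

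Reads of an injured library and the sham were set against each other by a two-sided Fisher's exact test, which compares 2 libraries rather than conditions. A read that covers several CpG positions enters at each, so the p-values here and below treat repeated counts of a read as independent. The test counted 0 of 240 windows at either time, where counting needs 25 points and an adjusted p below 0.01. The background was 0.0341% at 1 week and 0.0352% at 1 month. At an unadjusted p below 0.05, Fisher's exact test passed 29 windows at 1 week (12.1% against 9.8% of all windows) and 30 at 1 month (12.5% against 10.3%). Without edges it passed 15 of 106 at 1 week (14.2% against 13.8%) and 28 at 1 month (26.4% against 16.2%). Between the 2 shams it then passed 33 (31.1% against 26.3%). With all positions and at least 15 points it counted 0 at 1 week and 2 at 1 month, against backgrounds of 0.144% and 0.255%. One was the window near Neu1, at 46.55% in the sham, 48.26% at 1 week and 61.99% at 1 month. The other, chr17:35347001-35348000, 16 kb from Ltb, has 3 positions and read 84.02%, 75.55% and 66.44%.

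The window near Neu1 was also the only one counted at 25 points without edge positions. There the 5 remaining positions read 20.25% in the ischemia sham, 42.58% at 1 week and 45.57% at 1 month, and the difference at 1 month was 25.32 points (Fisher's exact test, adjusted p = 2.16e-07, background 0.131%). The obstruction sham read 49.66% at the same positions, above both ischemia libraries, and UUO 57.62% and 46.96%. The low value was thus that of the ischemia sham. The same test between the 2 shams also counted 1 window of the region, against a background of 0.11%. At 49.66% and 20.25% the window near Neu1 itself meets the 25 points between the shams, so this count need not be a further window. With all positions and at least 15 points, the test between the shams counted 2 of 240 windows, against 307 of all 93730.

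Among windows of at least 5 positions, that of the Slc44a4 start was among the 5 that stood highest relative to the sham at both times. Over all 240 windows the highest differences were 27.56 points at 1 week and 15.61 at 1 month. The Slc44a4 window read 28.84% in the ischemia sham, 36.86% at 1 week and 40.07% at 1 month, differences of 8.02 and 11.22 points (Fisher's exact test, adjusted p = 0.102 and 0.00446). The obstruction sham, at 39.32%, again stood with the injured libraries. Near Hspa1l the level was 35.28% in the ischemia sham, 25.44% at 1 week and 43.76% at 1 month, so the 2 times lay on either side of the sham. The most negative difference at 1 month among windows named by the rule was -8.35 points at chr17:35032001-35033000, 1 kb from the zinc finger gene Zbtb12. It read 81.49% in the sham and 73.14% at 1 month (Fisher's exact test, adjusted p = 0.122).

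**Figure D5:**
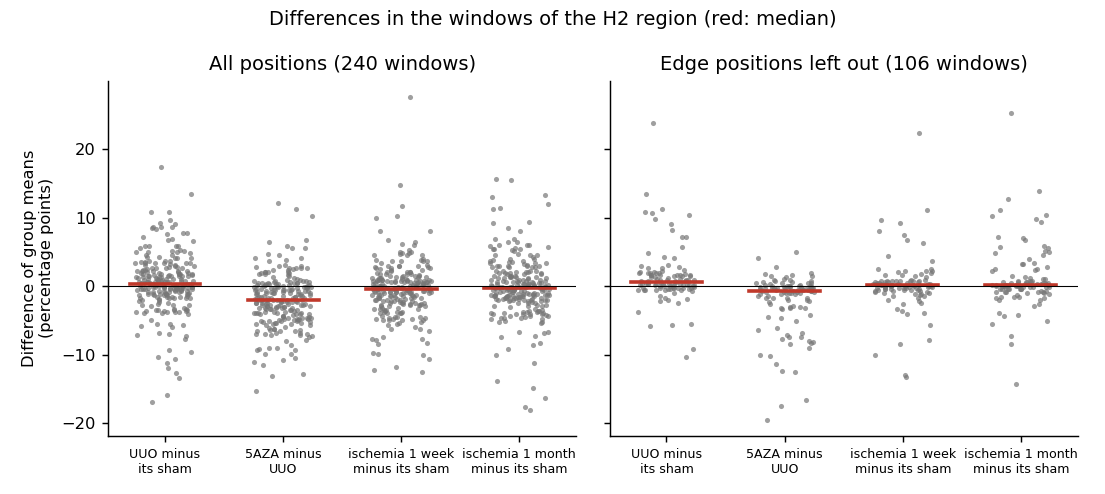
Difference of group means in percentage points for each window of the H2 region in the 4 comparisons, with all positions (left, 240 windows) and without fragment edges (right, 106 windows); dots are windows, spread sideways at random, and red lines are medians. The median for 5AZA minus UUO is -2.03 points with all positions and -0.75 without edges, and the other medians lie within 0.7 points of 0.

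No window with a matched start site was called or counted in any of the 4 comparisons. The 18 that hold the start of a listed gene had a median level of 15.52% with all positions, and their UUO minus sham differences ran from -4.03 to 5.03 points. One of the 18, that of Ring1, passed an unadjusted p below 0.05 for UUO in the quasi-binomial model with limma (14.99% and 14.84% against 12.77%, adjusted p = 0.554). None of the 18 did for 5AZA, with differences from -4.45 to 2.08 points, and the lowest adjusted p was 0.238 there. In the ischemia series the 18 differed from the sham by -2.71 to 9.94 points at 1 week and by -6.62 to 1.99 at 1 month. Over all 44 windows with a matched start the differences ran from -7.13 to 7.78 points for UUO, from -9.34 to 5.8 for 5AZA, from -7.42 to 9.94 at 1 week and from -7.42 to 11.22, at Slc44a4, at 1 month. The H2-K1 window read 14.1% in the obstruction sham, 12.06% and 13.86% in UUO and 12.68% and 13.97% with 5AZA. The larger H2-D1 window read 14.86%, then 15.76% and 15.2%, then 15.5% and 15.31%. In the 196 windows with no matched start the median level was 81.67% and the median difference with 5AZA was -2.52 points, beside 0.06 in the 44 windows with any matched start.

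Without edges, UUO and its sham lay furthest apart in windows averaging 10% to 30%. In the 68 windows below 10% all libraries averaged between 0.96% and 2.44%. In the 9 windows averaging 10% to 30%, the obstruction sham averaged 13.01%, UUO 21.32% and 19.28%, and 5AZA 14.47% and 14.73%. The ischemia libraries averaged 15.85% in the sham, 13.22% at 1 week and 20.38% at 1 month. In the class of 10% to 30%, both UUO libraries lay above the sham in 8 of the 9 windows, both 5AZA libraries below both UUO libraries in 7, and the 1 month library above its sham in 8, but the 1 week library above its sham in only 2. In the 10 windows averaging 30% to 70% the obstruction sham averaged 49.77%, UUO 52.34% and 51.92%, and 5AZA 43.02% and 43.76%. In the 72 windows of the 10% to 30% class elsewhere on chromosome 17 the matching shares were 47.2%, 54.2%, 70.8% and 50%. Classes were set on the mean of all 8 libraries, which includes the libraries compared. The class of 9 was singled out after its values were seen, and its difference from other windows was not tested. Its members include the windows near Hspa1l and 1110038B12Rik, the Vwa7 start and the class II window at chr17:34276001-34277000. Apart from the Vwa7 start, these were named above for their differences in UUO, so the counts are not separate support. Without edges the class II window read 11.99% in the sham, 21.51% and 23.3% in UUO and 12.5% and 15.7% with 5AZA.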

How the data were processed

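The deposited tables list, for each CpG of a library, the count of covering reads, the count of methylated reads and the methylated fraction, per the values in the files. Counts were used as the authors deposited them, and the deposited fraction was not used, since levels were computed from the counts. Reads were aligned with Bowtie to mm9, per the submitters' processing notes. The sources used here name neither the Bowtie version nor the methylation caller. MspI digestion and end repair with methylated dCTP are per the labels' protocols.

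Positions with at least 10 reads in all 8 libraries (976938) were summed in 1000 bp windows of at least 3 positions. Each window was fitted with a quasi-binomial model with 1 mean per group over all 8 libraries. Its Pearson dispersion was moderated across windows by limma 3.58.1 in R 4.3.3 and not allowed below 1. F test p-values were adjusted by Benjamini-Hochberg over 93730 windows. Ischemia libraries were compared by Fisher's exact test. Alternatives were edgeR 4.0.16, limma on log2 ratios of the deposited counts with a pseudocount of 1, and the settings in the closing section. A position counted as inside a fragment when the next CpG of at least 40 reads in total lay within 250 bp on each side and the depth changed by at most 10% to both; all others were called edges. Like windows share a level class (limits 10, 30, 70 and 90%, set on the other surgical series) and a CpG class (limits 6, 10 and 20). A promoter was placed where at least 5 measured positions, and every measured position it spans, fell on its CG pairs, with at least 3 more than at any other place on chromosome 17. No coordinate was converted between builds, and distances to a start count matched starts only. The windows named are those called, and the 5 largest positive and 5 largest negative differences per comparison among windows of at least 5 positions whose libraries agree in sign. Further windows are named where the text says why. The region, the gene lists and the windows were chosen with earlier results of these data known. UUO and 5AZA libraries share sample numbers. Deviations of same-numbered libraries correlated by only 0.07 over all windows, so the numbers were not taken as pairs.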

Additional observations from a re-analysis of the deposited data

Results flagged for a closer look

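With all positions averaged over windows, the region's mean lay on opposite sides of the sham in the 2 surgical series. Both UUO libraries lay above their sham, by 0.4 points on average, and both ischemia libraries lay below theirs, by 0.31, a gap of 0.71 points. With all positions the same held for the class III block, with a gap of 0.92 points (0.59 against -0.33), and for the D block, with a gap of 2.91 (1.24 against -1.68). Without edge positions it did not hold. Over the region the differences from sham were then 1.39 points for UUO, 0.25 at 1 week and 1.13 at 1 month. Both ischemia libraries then also lay above their sham in the class III block (25.92% and 26.9% against 25.67%) and in the D block (28.91% and 27.38% against 26.19%). With reads pooled over positions the differences over the region were -1.17 for UUO, 0.22 at 1 week and -0.98 at 1 month. In the window chr17:34087001-34088000 near B3galt4, the difference from sham was -13.39 points for UUO and 4.69 for ischemia, a gap of -18.08. In chr17:35176001-35177000, near Clic1, the gap was 6.61 points, and in chr17:35292001-35293000, near Prrc2a, 6.55. These differences were not tested. Each rests on 1 sham library per series, and the shams themselves differed, with 60.24% against 59.1% over the region and 61.97% against 42.25% in the window near B3galt4.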

How the results depend on the processing

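For UUO and 5AZA the counts of 0 called windows stayed at 0 without edges, with at least 20 reads per position, an upper limit on depth, 300 bp windows, edgeR, limma and minimum differences of 5 and 20 points. For UUO the count was 2 with only the 2 groups in the model (0.833% against 0.986% of all windows) and 1 with both shams as 1 group (0.417% against 0.313%). Leaving out 1 library gave 0 to 6 for UUO (6 without UUO 2, which is 2.5% against 0.786% of all windows, and 2 without either 5AZA library, 0.833% against 0.987%) and 0 to 4 for 5AZA (4 without UUO 2 or without 5AZA 2, 1.67% against 1.78% and 1.48%, and 3 without 5AZA 1, 1.25% against 3.96%). A single library left in a group is assumed to vary like the others. With the replicate block, which pairs libraries by sample number, 5AZA gave 2 windows (0.833% against 2.66%), one of them near Hspa1l (adjusted p = 0.0279, quasi-binomial with limma). At 1 month of reperfusion after ischemia the count was 1 without edges and 2 at 15 points.

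The mean difference of UUO was 1.39 points without edges, 1 over CpG positions, -1.17 with pooled reads and 0.96 against both shams. Leaving out 1 UUO library gave 0.27 to 0.52. For 5AZA it was -1.69 over positions and -0.06 with pooled reads, and -2.43 to -1.84 leaving out 1 library. At 1 week it was 0.25 without edges and 0.22 with pooled reads, and at 1 month 1.13 without edges, 0.34 over positions and -0.98 with pooled reads. The cause of these shifts was not tested. The window chr17:34258001-34259000 turned from 5.63 to -0.52 points for 5AZA without edges. Of 248 values of named windows under alternatives, 230 kept their direction and side of the threshold and 17 newly passed it. Like windows classed by all 8 libraries, or drawn from all autosomes, were tried after seeing the data and left the gap to the region at -0.53 and -0.5 points for UUO and 0.75 and 0.74 for 5AZA. The thinnest window held 30 reads in a library.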
